A study of Mus musculus with 4 samples.

Results

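The regions described here are stretches of open chromatin that both genotypes share but that are broken into a different number of peaks in each. They were chosen by the positions of the peaks alone: peaks of the wild-type (WT) and the double-knockout (dKO) list were merged wherever they shared 1 bp or more, in chains, and the 1449 merged regions made of 3 or more peaks were kept, of 79122 regions in all and of 51129 that held a peak of both lists. In 1131 of them a single WT peak met 2 or more dKO peaks, and these are called split in dKO. In 303 a single dKO peak met 2 or more WT peaks, and these are called split in WT. The remaining 15 had 2 peaks in each list.

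The cells were hair follicle stem cells from back skin, taken from males at postnatal day 70 in second telogen, when the follicle rests, and their open chromatin was mapped by ATAC-seq. The WT animals, mice 13 and 15, were littermates without Cre, and the dKO animals, mice 14 and 16, carried Sox9-CreER. NFIBfl/fl and NFIXfl/fl, with the reporter R26-YFPfl/fl, were common to both genotypes. Live cells that were Sca-1-, integrin alpha 6+ and CD34+ were sorted in both genotypes, and the dKO cells were in addition YFP+, which restricts them to cells in which Cre had acted. Sox9 is active in the follicle's stem cells and in other cells of the outer root sheath, and CreER acts only after an inducer, whose schedule is not given in the sources used here. Per the labels there was 1 peak list for both mice of a genotype, so no value below has a replicate check and no p-value was computed. Intervals given with shares are Wilson 95% intervals, which hold for counting error alone and take the regions to be independent.

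Hair follicle stem cells rest in the bulge, the niche below the sebaceous gland, and are known for being kept by transcription factors such as SOX9, LHX2, NFATC1 and the nuclear factor I (NFI) proteins. NFI proteins bind as dimers to palindromes of the motif TTGGC and its complement GCCAA, and NFIB has been described as a factor that keeps chromatin open. An ATAC-seq peak is a stretch where the transposase inserted adapters more often than the local background, and a peak caller ends one peak and begins another where the signal drops under its threshold. A region can therefore be 1 peak in one list and several in the other while both lists are open over much of the same bases.

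Peaks numbered 68197 in WT and 63548 in dKO, and their median widths were 768 and 691 bp. The authors' pileup, the number of reads or fragments at the summit, had a median of 73 in WT and 38 in dKO, and the lowest local background was 5.29 in WT and 2.73 in dKO, a ratio of 1.94. Pileup was not scaled for depth, so values of different lists are given side by side, or as multiples of the lowest background of their own list, and no change is read from them. Neighbouring peaks of a list were never closer than 217 bp in WT and 212 bp in dKO. Among shared regions nearest to the genes of lists drawn up for the tissue, 306 lay at 20 genes of hair follicle stem cell identity. Of the marker lists of other cells, 15 lay at 6 fibroblast, 27 at 6 melanocyte, 22 at 5 endothelial and 3 at 4 immune genes. At 16 housekeeping genes lay 25, so such counts do not show which cells were present. Long genes have room for more regions, and no scaling for that was made.

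Where a transcription start site of a gene fell into the gap between the peaks of one list, the sequence around that start shows what the single peak covered and the split peaks left out. Some of these genes have other start sites inside the split peaks, as given below. The promoters below belong to regions whose single peak had the highest deposited −log10 q among regions of that kind, 3 split in dKO and 2 split in WT, and were chosen after their values were seen. Each is the RefSeq promoter of GRCm38.p6, 300 bases from 250 before to 50 after the start, read 5′ to 3′ on the gene's strand, with the bases that lay in the gap in capitals. The start site is base 251.
Bend3: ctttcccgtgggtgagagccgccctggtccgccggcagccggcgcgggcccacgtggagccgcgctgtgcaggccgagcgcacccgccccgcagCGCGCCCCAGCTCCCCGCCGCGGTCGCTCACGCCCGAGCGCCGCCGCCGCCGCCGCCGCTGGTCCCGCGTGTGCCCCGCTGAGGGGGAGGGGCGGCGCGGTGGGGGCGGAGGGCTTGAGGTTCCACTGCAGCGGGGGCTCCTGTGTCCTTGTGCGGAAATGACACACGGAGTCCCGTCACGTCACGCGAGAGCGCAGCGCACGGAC
Ube2d3: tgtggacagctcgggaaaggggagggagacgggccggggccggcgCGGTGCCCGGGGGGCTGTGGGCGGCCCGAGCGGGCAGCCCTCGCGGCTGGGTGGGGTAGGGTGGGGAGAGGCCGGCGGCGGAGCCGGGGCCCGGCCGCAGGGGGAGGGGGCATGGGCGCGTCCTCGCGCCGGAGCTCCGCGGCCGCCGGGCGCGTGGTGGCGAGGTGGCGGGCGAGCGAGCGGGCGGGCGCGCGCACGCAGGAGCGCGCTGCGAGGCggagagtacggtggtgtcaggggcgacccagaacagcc
Zfp384: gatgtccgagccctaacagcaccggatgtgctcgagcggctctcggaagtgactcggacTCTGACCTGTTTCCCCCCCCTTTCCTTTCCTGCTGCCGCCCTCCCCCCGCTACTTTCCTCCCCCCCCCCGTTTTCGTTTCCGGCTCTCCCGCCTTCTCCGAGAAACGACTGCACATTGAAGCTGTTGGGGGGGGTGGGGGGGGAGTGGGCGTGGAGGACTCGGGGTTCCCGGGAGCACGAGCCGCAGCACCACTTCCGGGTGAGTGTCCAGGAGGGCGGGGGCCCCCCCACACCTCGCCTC
E2f8: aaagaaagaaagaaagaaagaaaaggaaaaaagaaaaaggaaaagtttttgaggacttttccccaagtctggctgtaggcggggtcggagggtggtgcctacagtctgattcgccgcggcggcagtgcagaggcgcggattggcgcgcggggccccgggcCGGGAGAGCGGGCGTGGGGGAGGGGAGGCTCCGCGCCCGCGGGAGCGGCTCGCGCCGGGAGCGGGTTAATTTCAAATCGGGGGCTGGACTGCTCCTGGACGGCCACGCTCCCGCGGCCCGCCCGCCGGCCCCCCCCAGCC
Scamp1: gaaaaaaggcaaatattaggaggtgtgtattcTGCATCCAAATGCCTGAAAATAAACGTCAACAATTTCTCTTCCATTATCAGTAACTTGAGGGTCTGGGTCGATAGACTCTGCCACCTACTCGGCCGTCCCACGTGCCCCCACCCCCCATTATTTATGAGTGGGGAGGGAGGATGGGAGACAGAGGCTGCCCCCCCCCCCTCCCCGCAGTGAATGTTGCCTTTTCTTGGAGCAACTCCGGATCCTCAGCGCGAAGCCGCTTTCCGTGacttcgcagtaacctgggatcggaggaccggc

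The 3 promoters split in dKO were GC-rich, beside a median of 56.3% over all coding promoters. In Bend3, which encodes a repressor of transcription that binds CpG-rich DNA (chr10:43478890-43479189, plus strand), 206 of the bases lay in a gap of 278 bp between dKO peaks with pileups of 69 and 236, under a WT peak with a pileup of 534. In Ube2d3, which encodes a ubiquitin-conjugating enzyme (chr3:135438876-135439175, plus strand), 217 bases lay in a gap of 217 bp between dKO peaks of 234 and 118, under a WT peak of 597. Ube2d3 has 4 start sites in this region, and all but the printed start lay in the stronger dKO peak. In the zinc finger gene Zfp384 (chr6:125008988-125009287, plus strand), 241 bases lay between dKO peaks of 181 and 46, under a WT peak of 394. Zfp384 has 3 start sites in its region, and the last of them lay in the weaker dKO peak. All 3 promoters have no TTGGC or GCCAA in this window, and their GC content was 77.7%, 81.0% and 67.3%.

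The direction was the opposite at the promoters split in WT. At E2f8, which encodes an atypical E2F repressor of the cell cycle (chr7:48881547-48881846, minus strand), the dKO list had 1 peak with a pileup of 195 and the WT list had peaks of 340 and 84 with a gap of 228 bp. Its window holds 1 match to the NFI motif, at base 140 and outside the gap, which overlaps the sequence ATTGG of a CCAAT box on the other strand. At Scamp1, a gene of membrane traffic (chr13:94285782-94286081, minus strand), a dKO peak of 238 met WT peaks of 409 and 333 with a gap of 236 bp. Another start site of Scamp1 lay in the stronger WT peak. GC content was 66.7% at E2f8 and 54.3% at Scamp1.

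Regions split in dKO were 2.21% of the 51129 shared regions and regions split in WT were 0.593%, and those with 2 peaks in each list were 0.0293%. These shares follow from the rule and are a description. The ratio of regions split in dKO to regions split in WT was 3.73 (3.29 to 4.24), and regions split in dKO made up 78.9% (76.7 to 80.9) of the regions split in one list alone. Regions split in dKO were the more numerous on 20 of the 20 chromosomes that had any, from a ratio of 2.4 on chromosome 9 to 7.8 on chromosome 14. The Y chromosome had 6 shared regions and 0 split. Most splits were into a pair of peaks, and 20 regions split in dKO and 2 split in WT held 3 peaks.

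Both lists had nearly the same number of close neighbours, but WT peaks ran across the dKO gaps far more often than dKO peaks ran across the WT gaps. There were 1917 gaps under 500 bp in the dKO list and 2008 in the WT list, 3.02% and 2.95% of the peaks. Of these dKO gaps, 814 (42.5%, 40.3 to 44.7) were bridged by a single WT peak that overlapped both neighbours. Of the WT gaps, 260 (12.9%, 11.6 to 14.5) were bridged by a single dKO peak. By the rule, a bridged gap lies in a region split in the gap's own list or with several peaks in each list. The bridged counts therefore largely restate the excess of regions split in dKO, for gaps under 500 bp, and are not a separate finding. The near equality in the number of gaps is not set by the rule. Separate peaks of the other list stood on both sides at 633 dKO gaps (33.0%) and 833 WT gaps (41.5%). At 470 dKO gaps (24.5%) and 915 WT gaps (45.6%) the other list lacked a peak on at least one side. Of all 79122 regions, 16743 held a WT peak alone and 11250 a dKO peak alone, so this order was also that of the whole lists. Whether gaps differ from other peaks in this was not tested. With gaps up to 1000 bp the bridged shares were 28.2% and 7.15%. The WT list had the higher background and the larger pileups, and the part of depth in this difference was not tested beyond the bins of strength below.

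Wide regions were the ones that split, in both directions. Of shared regions up to 1000 bp wide, 0.0500% were split in dKO and 0.0423% in WT. The shares rose to 6.11% and 1.27% at 1500 to 2000 bp, 15.3% and 3.47% at 2000 to 2500 bp, and 32.9% (27.5 to 38.9) and 8.53% (5.70 to 12.6) above 3000 bp. A region has to hold 2 peaks and a gap to be split, so a rise with width is in part given by the rule. Up to 1000 bp the intervals of the directions overlapped, and in each wider bin the dKO share was above the WT share and the intervals were apart.

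**Figure D1:**
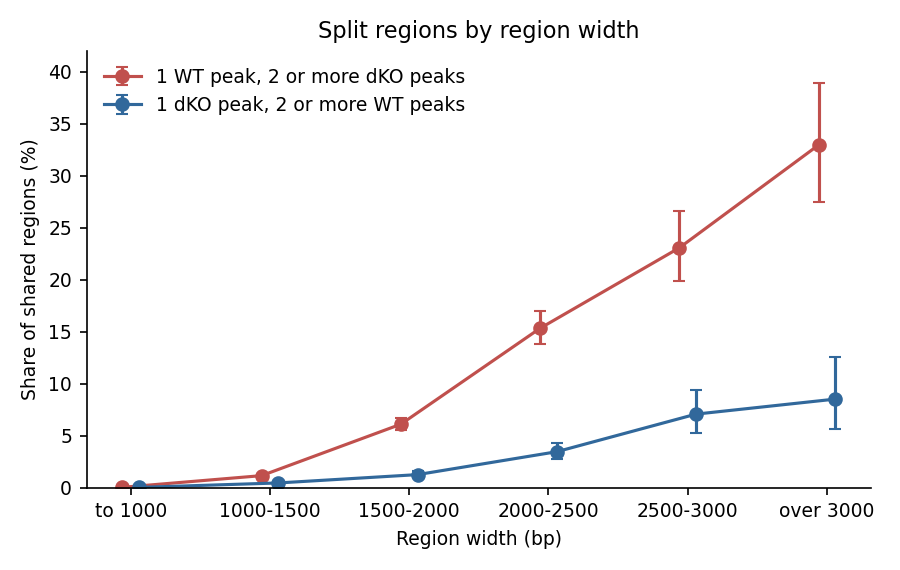
Share of shared regions (percent, y axis) that were split in dKO (red, 1 WT peak and 2 or more dKO peaks) or in WT (blue, 1 dKO peak and 2 or more WT peaks) by width of the region in bp (x axis), with Wilson 95% intervals as bars. The red line leaves the blue line above 1000 bp and reaches 32.9% against 8.53% above 3000 bp.

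Among regions over 2000 bp, the share that was split fell with the strength of the region in the list that was split. Where the highest pileup of the dKO list was at most 50, 32.5% (28.4 to 37.0) were split in dKO, and at the same pileups of the WT list 13.7% (8.17 to 22.0) were split in WT. At pileups of 80 to 120 the values were 20.4% (17.3 to 23.9) of 573 regions and 8.56% (5.72 to 12.6) of 257. Between 120 and 200 they were 12.7% and 5.53%. Above 300 they were 3.14% (1.35 to 7.15) and 3.36% (2.51 to 4.48), with overlapping intervals, so at the highest raw pileups the directions could not be told apart. Measured in multiples of each list's lowest background, the dKO share was the higher one in each of the 6 bins, from 38.1% against 13.9% at 10 times or less to 9.55% (7.83 to 11.6) against 2.98% (2.16 to 4.10) above 60 times.

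**Figure D2:**
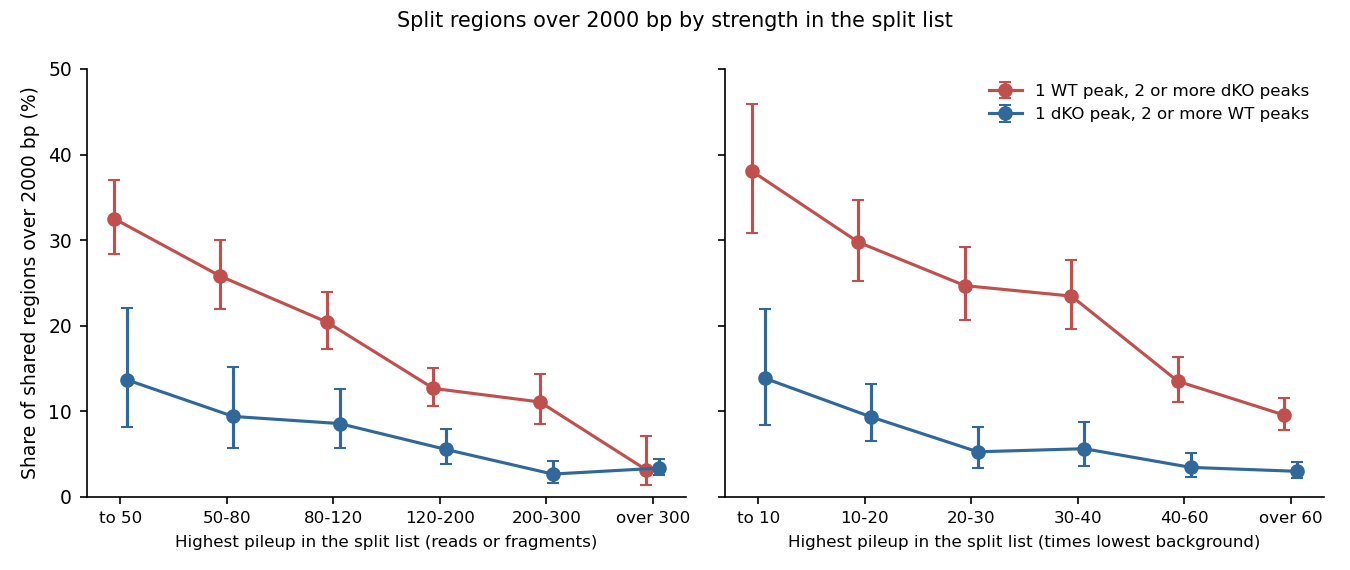
Share of shared regions over 2000 bp (percent, y axis) that were split in dKO (red) or in WT (blue), by the highest pileup of the split list in reads or fragments (left) and in multiples of that list's lowest background (right), with Wilson 95% intervals as bars. Both shares fall with strength, and only in the bin above a pileup of 300 do the points coincide.

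Inside a split region a strong and a weaker peak stood side by side, and their proportions were much the same in both directions. In regions split in dKO the single WT peak had a median width of 1908 bp and a median pileup of 149, and the dKO peaks had median pileups of 55 for the stronger and 30 for the weaker. In regions split in WT the single dKO peak had a median width of 1723 bp and a pileup of 58, and the WT peaks had 92 and 49. In multiples of each list's own lowest background, the medians were 28.2 for the single WT peak beside 20.2 for the stronger dKO peak, and 21.3 for the single dKO peak beside 17.4 for the stronger WT peak. The weaker peak had a median of 0.600 of the pileup of the stronger in dKO and 0.583 in WT, compared within one list, and it reached at least 0.8 in 22.0% (19.7 to 24.5) and 23.8% (19.3 to 28.9). In the median the weaker peak was also the narrower one, though not in every region, with widths of 435 and 438 bp against 788 and 824 bp. A −log10 q under 5 was found for the weaker peak in 33.8% (31.1 to 36.6) of regions split in dKO and 26.4% (21.8 to 31.6) of those split in WT.

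The gaps were wider where dKO was split. The widest gap of a region had a median of 370 bp (range 212 to 1610) in regions split in dKO and 328 bp (217 to 1239) in regions split in WT. Gaps over 500 bp were found in 346 of 1131 (30.6%, 28.0 to 33.3) and 58 of 303 (19.1%, 15.1 to 23.9), and gaps over 1000 bp in 37 (3.27%) and 1 (0.330%). The single peak ran past both outer ends of the split peaks in 44.4% (41.5 to 47.3) of regions split in dKO and 20.8% (16.6 to 25.7) of those split in WT. WT peaks were the wider ones over the lists as a whole, which bears on this last difference, and its part was not tested.

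**Figure D3:**
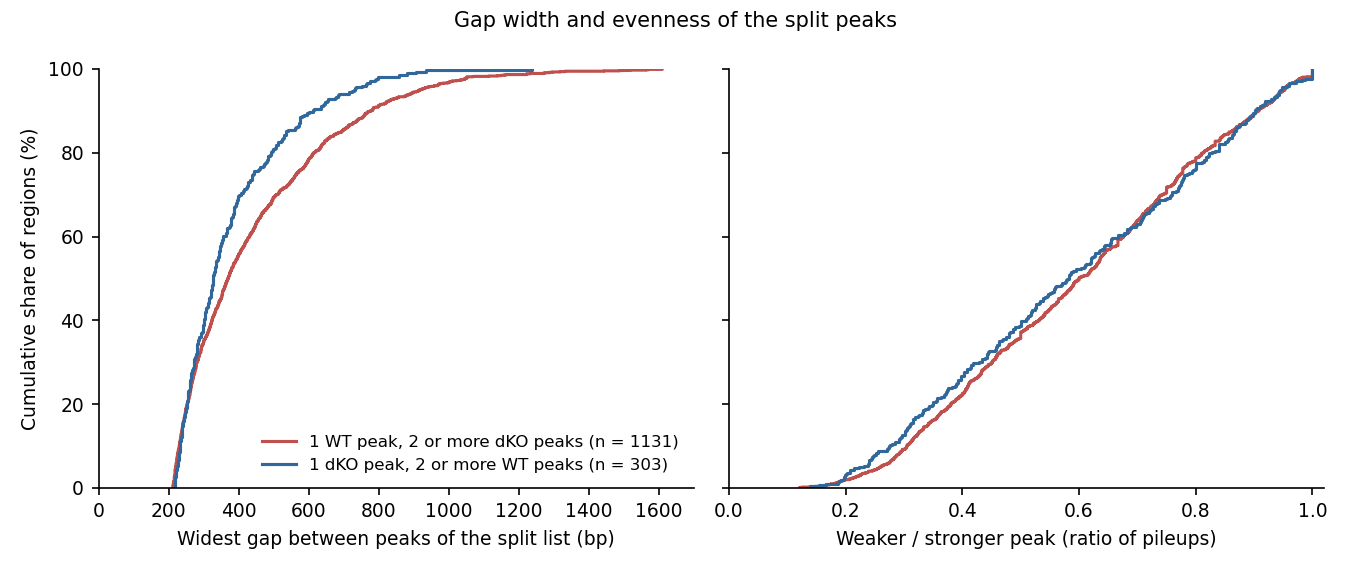
Cumulative share of split regions (percent, y axis) by the widest gap between neighbouring peaks of the split list in bp (left) and by the ratio of the weaker to the stronger peak's pileup (right), for 1131 regions split in dKO (red) and 303 split in WT (blue). The gap curves part above about the median and the ratio curves run together.

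The strongest point of the single peak usually coincided with the stronger of the split peaks. Its summit fell inside the stronger peak in 888 regions split in dKO (78.5%, 76.0 to 80.8) and 238 split in WT (78.5%, 73.6 to 82.8), and inside the weaker peak in 216 (19.1%) and 62 (20.5%). In 27 regions split in dKO (2.39%, 1.65 to 3.45) and 3 split in WT (0.990%, 0.337 to 2.87) it lay outside every peak of the other list, in the gap itself in 21 and 1. The distance between the summit of the single peak and that of the stronger split peak had a median of 64 bp in regions split in dKO and 74 bp in regions split in WT. It was over 500 bp in 21.1% (18.9 to 23.6) and 25.7% (21.1 to 30.9), against 9.38% (8.77 to 10.0) of the 8153 regions over 1500 bp that held 1 peak in each list. Regions with several maxima give the summit more places to move to, so this order is in part given by the choice of regions.

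The regions with the most dKO peaks lay at genes of several kinds. Inside Bach2 (gene 12014, chromosome 4, 32302582 to 32305787, mm10), which encodes a transcriptional repressor best known from lymphocytes, a WT peak with a pileup of 389 met dKO peaks of 49, 172 and 108, separated by 234 and 477 bp. The middle dKO peak, the highest of them, held the WT summit. Over the start site of Fam102a (chromosome 2, 32534476 to 32537653) a WT peak of 400 met dKO peaks of 142, 34 and 45. Inside Ptprg (chromosome 14, 12059124 to 12061826), a receptor tyrosine phosphatase gene, a WT peak of 423 met dKO peaks of 46, 28 and 160. Over the start site of Igsf8 (chromosome 1, 172309581 to 172312784), a gene of an immunoglobulin protein that associates with tetraspanins, a WT peak of 523 met dKO peaks of 181, 298 and 104. The start site itself lay in a dKO gap. The region 18.6 kb from Wnt11 (chromosome 7, 98814929 to 98818109), which encodes a ligand of noncanonical WNT signalling, had a WT peak of 284 and dKO peaks of 84, 58 and 37. Noncoding genes at this region are the tRNA genes n-TPtgg8 and n-TPagg7 and Gm39054, so Wnt11 is only its nearest coding gene. In each of these 5 regions the WT summit fell in the highest dKO peak.

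The WT peaks with the highest −log10 q that were split in dKO mostly met a large and a small dKO peak. The strongest of all lay over the ribosomal RNA genes Rn18s-rs5 and AY036118 on chromosome 17 (39843087 to 39848827), with a WT pileup of 4295 and dKO pileups of 888 and 873. Ribosomal RNA genes are repeated many times in the genome, so the reads may come from several copies and the value is uncertain. At Lsm8 (chromosome 6, 18847878 to 18849834), which encodes a subunit of the U6 small nuclear ribonucleoprotein, the WT peak had a pileup of 663 and the dKO peaks 329 and 40 with a gap of 313 bp. At Kmt2b (chromosome 7, 30588034 to 30589974), a histone H3 lysine 4 methyltransferase gene, the WT peak had 665 and the dKO peaks 55 and 256. Fancm, a gene of DNA repair, had a WT peak of 711 and dKO peaks of 369 and 172. The start site of Fkbp3 lay in the stronger of these dKO peaks and that of Fancm in the weaker. Afap1l2, which encodes an adaptor of actin filaments, had 630 in WT and 257 and 48 in dKO, and Prdx3, which encodes a mitochondrial peroxiredoxin, 539 in WT and 54 and 236 in dKO. At these 5 genes the dKO peaks were uneven, least so at Fancm.

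The widest gaps were found at regions of unlike strength. Inside Mrtfa (chromosome 15, 81119922 to 81122424), which encodes an actin-regulated coactivator of serum response factor, the gap of 1610 bp was the widest, under a WT peak of 84 and between dKO peaks of 30 and 13. Setbp1 had a gap of 1571 bp under a WT peak of 36, with dKO peaks of 31 and 11. The gap beside Trim29, a gene active in stratified epithelia, was 1564 bp under a WT peak of 95, with dKO peaks of 13 and 46. At Slc38a2, a neutral amino acid transporter gene, it was 1518 bp under a WT peak of 225, with dKO peaks of 62 and 38.

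In the regions whose WT summit lay in the dKO gap, the dKO list had peaks on the flanks and none at the WT maximum. The one with the highest −log10 q of its WT peak, 93.4 kb from Yipf5 on chromosome 18 (40110880 to 40112114), had a WT pileup of 145 and dKO pileups of 11 and 13, with the WT summit 5 bp outside the nearer dKO peak. Inside Niban1 (chromosome 1, 151660319 to 151662407), a gene of the cellular stress response, the WT peak had a pileup of 171, and its summit lay 158 bp from the nearer of dKO peaks of 26 and 14 that were 1139 bp apart. The region 7.62 kb from Sphk1 (chromosome 11, 116522194 to 116524247), a sphingosine kinase gene, had a WT peak of 119 with its summit 205 bp from dKO peaks of 10 and 13. A region on chromosome 4 (106161375 to 106162884), with no protein-coding gene within 100 kb, had a WT peak of 120 with its summit 289 bp from dKO peaks of 16 and 11. In multiples of its list's lowest background, the WT peak reached 27.4 times at the Yipf5 region and 32.3 times inside Niban1, and the higher dKO peak 4.77 and 9.53.

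Regions split in WT included 2 with 3 WT peaks. Inside Mid1 on the X chromosome (169979254 to 169982483), which encodes a microtubule-associated ubiquitin ligase, a dKO peak of 63 met WT peaks of 55, 158 and 67. Inside Scnn1b (chromosome 7, 121871783 to 121874441), which encodes a subunit of the epithelial sodium channel, a dKO peak of 30 met WT peaks of 20, 23 and 25. Here the dKO pileup was above each WT pileup although the dKO background was the lower one.

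The dKO peaks with the highest −log10 q that were split in WT lay at Dcaf6, at a site with no coding gene within 100 kb on chromosome 8 (73352000 to 73354598), and at Psat1. Dcaf6 (chromosome 1, 165459496 to 165461747), a substrate receptor gene of a ubiquitin ligase, had a dKO peak of 511 and WT peaks of 138 and 896. The start site of Mpc2 lay in the same region. Psat1 (chromosome 19, 15923378 to 15926149), an enzyme gene of serine synthesis, had a dKO peak of 368 and WT peaks of 516 and 202, and the site on chromosome 8 a dKO peak of 347 and WT peaks of 175 and 635. Tm2d3 followed with 345 in dKO and 547 and 133 in WT, and Bivm with 296 in dKO and 546 and 214 in WT. The Bivm region also held the start site of Poglut2. The sixth lay inside Lama3 on chromosome 18 (12502949 to 12505805), which encodes the alpha chain of laminin-332, the laminin that anchors basal keratinocytes and bulge cells, with a dKO peak of 306 and WT peaks of 600 and 181 that were 256 bp apart.

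Their widest gaps were shorter than those of dKO. Gaps of 1239 bp on chromosome 13 (73070142 to 73072301) and 936 bp on chromosome 3 (54524731 to 54527333) lay more than 100 kb from a coding gene, and they were followed by 906 bp beside Rpp25l, a paralog of a ribonuclease P subunit gene, and 880 bp near Pbp2. At Pbp2 the dKO pileup was 42 and the WT pileups were 148 and 201, so there a weak dKO peak ran across the gap between stronger WT peaks. The 3 regions whose dKO summit lay outside every WT peak were weak ones at Setbp1, H4c14 and Cstad, with dKO pileups of 17, 16 and 18. Their WT peaks had pileups of 24 and 17, of 28 and 36, and of 21 and 24.

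**Figure D4:**
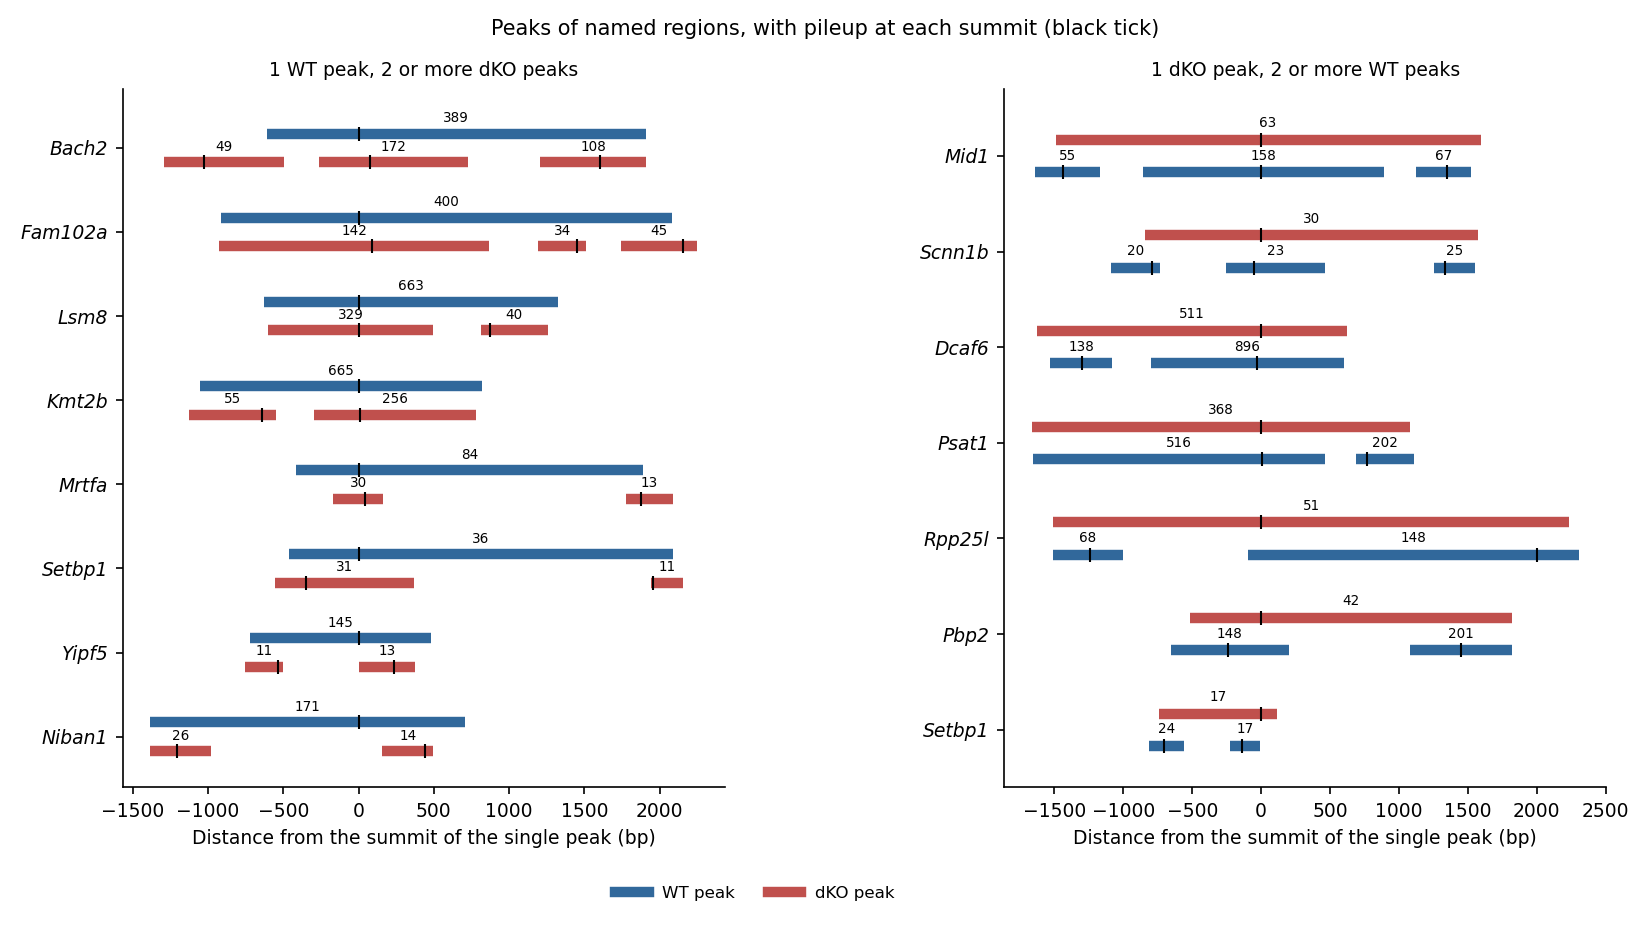
Position of each peak of 15 named regions in bp from the summit of the single peak (x axis), with WT peaks in blue, dKO peaks in red, summits as black ticks and pileup in reads or fragments printed above each bar. Regions with 1 WT peak are on the left and regions with 1 dKO peak on the right, and in the Yipf5 and Niban1 rows the WT summit stands in the gap between the dKO peaks.

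The share at gene ends was above that of all regions with 1 peak in each list for regions split in dKO, overlapped it for regions split in WT, and was in both below that of the wide ones among them. A gene end, meaning a midpoint no more than 1 kb from an end of a coding gene, held 26.9% (24.4 to 29.5) of regions split in dKO, 23.8% (19.3 to 28.9) of those split in WT and 22.4% (22.1 to 22.8) of the 49680 regions with 1 peak in each list. Among regions with 1 peak in each list and over 1500 bp the share was 46.1% (45.0 to 47.2). Gene bodies held 42.1% of regions split in dKO and 47.2% of those split in WT, and 31.0% and 29.0% lay between genes. For all regions with 1 peak in each list, gene bodies held 41.1% and 36.5% lay between genes. For those of them over 1500 bp these shares were 31.1% and 22.9%. In the classes of 1500 to 2500 bp, the split share was lower for regions with the start site of a coding gene. Of regions of 1500 to 2000 bp, 2.82% (2.24 to 3.55) with a start site and 8.42% (7.56 to 9.36) without one were split in dKO, and 0.644% (0.397 to 1.04) and 1.68% (1.31 to 2.15) in WT. At 2000 to 2500 bp these shares were 10.6% and 19.2% in dKO and 2.14% and 4.66% in WT. Above 2500 bp the intervals overlapped, with 23.7% (19.9 to 27.9) and 28.8% (24.6 to 33.4) in dKO and 7.13% and 7.69% in WT.

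The shares of split regions in crowded stretches were above that of regions with 1 peak in each list. In runs of at least 5 regions whose neighbours were under 10 kb apart lay 36.7% (33.9 to 39.5) of regions split in dKO and 35.3% (30.1 to 40.8) of those split in WT. The share was 29.8% (29.4 to 30.2) among regions with 1 peak in each list and 27.4% (26.4 to 28.3) among those of them over 1500 bp. The intervals of the split directions overlap each other.

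Coding start sites in the split regions sat mostly in the stronger peak. Regions split in dKO held 379 start sites of 317 genes in 295 regions, 22 of which had starts on both strands, and regions split in WT held 92 of 77 genes in 71 regions, 6 of them with both strands. Start sites on chromosome 18 were not used here. Where a region of 2 split peaks had 1 start site, it lay in the stronger peak in 144 of 227 regions split in dKO (63.4%, 57.0 to 69.4) and 37 of 54 split in WT (68.5%, 55.3 to 79.3). It lay in the weaker peak in 45 (19.8%) and 11 (20.4%), and in the gap in 34 (15.0%, 10.9 to 20.2) and 5 (9.26%, 4.02 to 19.9). With the start in the stronger peak, the other peak lay downstream, within or towards the gene, in 85 of 144 (59.0%, 50.9 to 66.7) and 24 of 37 (64.9%, 48.8 to 78.2).

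**Figure D5:**
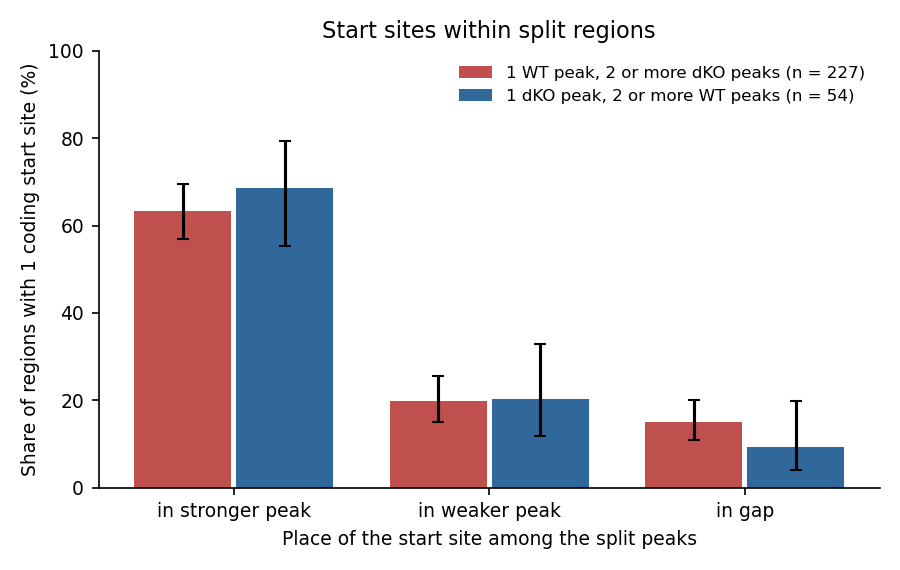
Share of regions with 1 coding start site and 2 split peaks (percent, y axis) whose start lay in the stronger peak, the weaker peak or the gap (x axis), for 227 regions split in dKO (red) and 54 split in WT (blue), with Wilson 95% intervals as bars. The stronger peak holds 63.4% and 68.5%, and the intervals of the directions overlap at all 3 places.

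Promoters whose start lay in a dKO gap had the higher GC content in the median. These 57 promoters had a median GC content of 70.7% and a median of 28 CpG, against 64.7% and 25 for all 379 promoters in regions split in dKO, and 64.7% and 25 for 4519 promoters in regions with 1 peak in each list and over 1500 bp. Promoters with the start in the weaker dKO peak had 61.3%. The 7 promoters in a WT gap had 66.0% and a median of 17 CpG, beside 65.3% and 22.5 for all 92 in regions split in WT. GC content can alter how often a fragment is amplified and sequenced, and its part in the gaps was not tested.

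The NFI motif was searched in the same windows of 300 bases on both strands, as TTGGC or GCCAA. It occurred in 44.6% (39.7 to 49.6) of the promoters in regions split in dKO and 53.3% (43.1 to 63.1) of those in regions split in WT, against 48.2% (46.8 to 49.7) in regions with 1 peak in each list and over 1500 bp and 47.9% of all 21262 coding promoters. These intervals overlap. With matches that overlap CCAAT or ATTGG left out, the shares were 35.9%, 39.1%, 36.1% and 37.3%. The full palindrome, TTGGC and GCCAA with 5 bases between them, was found in 7 of 21262 promoters and in 0 of the 379 and 0 of the 92.

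By nearest coding gene within 100 kb, 974 genes had a region split in dKO and 274 a region split in WT, of 14565 genes with a shared region, and 35 genes had both. No coding gene lay within 100 kb of 77 regions split in dKO and 19 split in WT. The most regions split in dKO at one gene were 3, at Btg1, an antiproliferative gene, with 11 shared regions in all, at Tiam1, an activator of the GTPase RAC1, with 37, at the transcription factor gene Arid5b with 25, and at Setbp1 with 25. Setbp1 had 1 region split in WT as well. In all 76 genes had 2 or more, among them Osbpl3, which encodes a lipid-binding protein, with 2 of 17. Bach2, whose region with 3 dKO peaks was described above, had the most regions split in WT, 3 of its 34. Trps1, whose protein is a GATA-type repressor that hair growth requires, had 2 of 20, the polarity gene Pard3 2 of 33, and the phosphatase gene Ptpn13 2 of 24. Genes with more shared regions have more that can be split.

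Genes of hair follicle stem cell identity had 9 regions split in dKO, at 7 of 20 genes, and 0 split in WT among 306 shared regions. That is 2.94%, beside 2.21% of all shared regions. Both targeted genes were among them. A region 65.6 kb beyond the gene body of Nfib (chromosome 4, 82571373 to 82573352) had a WT peak of 116 and dKO peaks of 14 and 18 with a gap of 381 bp, and one inside Nfib (82484816 to 82486933) a WT peak of 101 and dKO peaks of 24 and 17 with a gap of 1221 bp. In both, the WT summit lay in the weaker dKO peak. At Nfix (chromosome 8, 84798789 to 84801315) a WT peak of 137 met dKO peaks of 50 and 23. The floxed exons were not analysed here, and these peaks do not show whether they were lost.

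The other genes of this list with a region split in dKO included the vitamin D receptor gene Vdr, which is needed for hair cycling, with 2 regions. The stronger (chromosome 15, 97882375 to 97883793) had a WT peak of 387 and dKO peaks of 33 and 85, and the other a WT peak of 213 and dKO peaks of 84 and 56. Itga6 (chromosome 2, 71800094 to 71802755), which encodes the integrin alpha 6 used in the sort, had a WT peak of 441 and dKO peaks of 56 and 174 that were 1114 bp apart. Tcf7l2, a transcriptional effector of WNT signalling, had a WT peak of 181 and dKO peaks of 66 and 104 with a gap of 1488 bp. Tle4, a corepressor gene, had 456 in WT and 35 and 70 in dKO, and Id2, an inhibitor of basic helix-loop-helix factors, 560 in WT and 89 and 202 in dKO.

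Wound and AP-1 genes, which are induced by stress and by tissue dissociation, had 7 regions split in dKO, at 6 of 20 genes, and 0 split in WT among 154 shared regions, or 4.55% beside 2.21%. Fosb had a pair of them at its ends on chromosome 7. The first (19300065 to 19304024) had a WT peak of 262 and dKO peaks of 109 and 79, and the second (19308013 to 19310708) a WT peak of 178 and dKO peaks of 60 and 64. Junb (chromosome 8, 84975855 to 84980225) had 546 in WT and 148 and 190 in dKO, and Atf3 (chromosome 1, 191182510 to 191186804) 400 in WT and 153 and 105 in dKO. Myc, Fosl2 and Tnc had 1 region each. In the regions of this list the lesser dKO peak ranged from 0.29 to 0.94 of the greater, and their widths were 2038 to 4371 bp. Above 3000 bp, 32.9% of all shared regions were split in dKO.

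Among 229 shared regions, WNT signalling genes had 7 split in dKO, at 6 of 21 genes, and 2 split in WT. That is 3.06% and 0.873%, beside 2.21% and 0.593% of all shared regions. Ror2, a receptor of noncanonical WNT ligands, had 2 split in dKO, the stronger with a WT peak of 542 and dKO peaks of 108 and 191. Trabd2b, which encodes a protease that inactivates WNT proteins, had a WT peak of 522 and dKO peaks of 98 and 64. The regions split in WT were at Lgr4, a receptor of R-spondins, with a dKO peak of 152 and WT peaks of 132 and 77, and at the ligand gene Wnt5a with a dKO peak of 84 and WT peaks of 52 and 67. Quiescence and BMP signalling genes had 4 of 195 split in dKO (2.05%, beside the same 2.21%) and 0 split in WT. Those 4 were at Foxp1, Ltbp1, Smad1 and Smad5. The effector gene Smad5 had a WT peak of 260 and dKO peaks of 73 and 99, and Ltbp1, which encodes a binding protein of latent TGF-beta, 137 in WT and 124 and 57 in dKO.

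Adhesion and basal keratin genes had both kinds, with 5 regions split in dKO (2.51%) and 6 split in WT (3.02%) among 199, beside 2.21% and 0.593% over all shared regions. The region of Lama3 described above was among those split in WT. Lamb3, which encodes a laminin beta chain, had 2 split in dKO, the stronger (chromosome 1, 193300144 to 193302437) with a WT peak of 381 and dKO peaks of 39 and 127. Trp63, which encodes the master regulator p63 of stratified epithelia, had 2 weak regions split in WT, with dKO peaks of 26 and 23, and the desmoglein gene Dsg3 had 1 with a dKO peak of 179 and WT peaks of 496 and 283. Cd44, an adhesion receptor gene, had 2 split in dKO, one with a WT peak of 284 and dKO peaks of 48 and 140 and one with a WT peak of 416 and dKO peaks of 166 and 184. Counts of this size leave wide counting error, and no test was made of them.

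Epidermis and barrier genes and hair lineage genes each had 2 regions split in dKO and 2 split in WT, among 124 and 91 shared regions, or 1.61% and 2.198% in either direction, beside 2.21% and 0.593% over all shared regions. The latter were in both lists the same regions of Trps1, with dKO peaks of 168 and 126. Klf4, a factor of epidermal differentiation, had a WT peak of 216 and dKO peaks of 35 and 96, and Foxq1, a gene of hair shaft differentiation, 83 in WT and 24 and 35 in dKO. Among marker lists of other skin cells, melanocyte genes had 1 region split in dKO, at Mitf, of 27, and fibroblast, endothelial and immune genes had 0 of 15, 22 and 3. Housekeeping genes had 0 of 25. Beside 2.21% of all shared regions, lists this small say nothing of these genes. Over all 12 lists and 175 genes, 36 of 1349 shared regions were split in dKO (2.67%) and 10 in WT (0.741%), near the 2.21% and 0.593% of all shared regions.

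In the 15 regions with 2 peaks in each list, the gap of one list lay beside the gap of the other and never over the same bases, as the rule requires. They were 1588 to 4106 bp wide, with WT gaps of 226 to 578 bp and dKO gaps of 213 to 1058 bp, and the dKO gap was the wider in 11. The one with the highest WT −log10 q lay 56.5 kb from Nfatc1 on chromosome 18 (80548103 to 80551237), which encodes a factor of stem cell quiescence, with WT peaks of 480 and 184 and dKO peaks of 197 and 78. Inside Gsg1 on chromosome 6 (135249937 to 135253150) the WT peaks had pileups of 534 and 417 and the dKO peaks 139 and 220. Fbln1, which encodes a matrix protein of elastic fibres, had 326 and 265 in WT and 62 and 117 in dKO. In both, the higher peak came first in WT and second in dKO. The gaps lay at different places, so peaks of the same rank do not cover the same bases. Summit positions were not compared, and no change of the strongest point is read from this order. Inside Trps1 (chromosome 15, 50664591 to 50668696) they were 251 and 87 in WT and 119 and 56 in dKO. At the basal keratin gene Krt14 (chromosome 11, 100205133 to 100206720) they were 159 and 127 in WT and 48 and 31 in dKO.

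The rule takes regions with as little as 1 bp of overlap. Of the 1434 regions split in one list alone, 13 had a smallest overlap of 10 bp or less, the lowest being 2 bp, and 26 one under 50 bp, with a median of 364 bp. Just outside the rule, 5 pairs of neighbouring regions, at least one of each pair shared, lay 0 to 9 bp apart, the closest 3 bp.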

How the data were processed

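ATAC-seq peaks of hair follicle stem cells came as 1 deposited list per genotype, assigned by the labels to both mice of it. Bowtie2 2.2.9, Picard and MACS2 and the builds mm10 and GRCm38 are named in the submitters' processing notes, with no role or order. Not given in the sources used here are the way mice were combined, any shift of reads for the transposase and the treatment of duplicates. The deposited signal column is the authors' pileup at the summit, in whole reads or fragments and not scaled for depth. The deposited fold column divides pileup plus 1 by background plus 1, a ratio from which the local background was recovered. The authors also give −log10 values of p and q for each peak, under damaged header cells, so both columns were identified by position. All are the authors' values and served only to describe, order or filter the peaks of one list.

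Mitochondrial peaks, 5 in WT and 3 in dKO, were left out. Peaks overlapping by at least 1 bp were joined by chained overlap with Python 3.11.15 and pandas 2.3.3. Counts of overlapping peaks differed by 0 from those of bedtools 2.31.1, and the joining step was tested on simulated data. Genes, gene ends and promoters came from RefSeq tables of GRCm38.p6, the assembly named mm10, and regions took the nearest coding gene body within 100 kb. Coding start sites numbered 21262, with none on chromosome 18 in the table used. No genome sequence was used.

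Members, gene lists and rules for naming were chosen with earlier results of these data known. Named regions are, per direction, the 5 with most peaks, the 6 with the highest −log10 q of the single peak, the 4 with the widest gap, the 4 of highest −log10 q with the summit outside every peak, and 4 likewise with 2 peaks in each list, the 5 genes with most split regions, and up to 2 genes per list. Other named genes, the printed promoters and Krt14 were chosen after their values were seen. All 175 listed genes were matched. One gene that the rules name is not reported here. Alternatives were a 50% overlap, lists of equal length, a q value of at most 1e-05, a WT list thinned to the dKO background, joined gaps, peaks of at least 300 bp, duplicate rows counted once, and gene ends within 2 kb.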

Additional observations from a re-analysis of the deposited data

Results flagged for a closer look

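Mitochondrial peaks were left out of every comparison and carried the highest signal of either list. The WT list held 5 of them, which covered 8550 bp with pileups of 23943 to 29163, and the dKO list held 3, which covered 9615 bp with pileups of 33966 to 36504. The WT list had the larger number of peaks here, as it had in the nuclear genome with 68192 against 63545. Mitochondrial peaks were not merged into regions, so these totals cannot be set against the counts of split regions above.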

How the results depend on the processing

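The excess of regions split in dKO over regions split in WT kept its direction under all 8 alternatives. The ratio of 3.73 moved most with lists of equal length, to 5.004, and with the WT list thinned to the dKO background, to 4.60. Both settings remove WT peaks only, so the 1131 regions split in dKO stayed 1131 and those split in WT went from 303 to 226 and 246. They do not lower the threshold inside a WT peak, so a wide WT peak is never broken up by them, and the part of depth in the ratio was not tested further. At a q value of at most 1e-05 there were 757 and 224 regions (ratio 3.38), with 50% overlap 1063 and 267, and with peaks of at least 300 bp 826 and 224. Joining gaps under 300 bp, a choice made after seeing the data, left 888 and 268. Joining gaps under 150 bp and counting equal rows once changed nothing, since no gap is that short and 0 rows repeat an interval.

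The share of regions split in dKO at gene ends was 26.9% as reported. It was 32.6% at a q value of at most 1e-05 and 23.6% (21.0 to 26.6) with gaps under 300 bp joined. That last interval includes the 22.4% of regions with 1 peak in each list, which was not recomputed under this setting. With gene ends within 2 kb the share was 33.7%, and that of regions split in WT was 30.03% in place of 23.8%. The share of single WT summits outside every dKO peak went from 2.39% to 0.264% at a q value of at most 1e-05, and the median ratio of weaker to stronger dKO peak from 0.600 to 0.636. With gaps under 300 bp joined, the median gap was 481 bp in dKO and 398 bp in WT, as removing the shortest gaps must give. Of 42 recomputed values with an interval, 10 moved beyond it and 32 did not, and the 16 recomputed counts stayed within 1.5 times the count reported. Both tallies include the joining of gaps under 150 bp and the counting of equal rows once. These settings could not change any value, so a part of the unmoved values was fixed in advance. No paired analysis was possible because each genotype has 1 list and the mouse numbers are not shared between genotypes, and leaving out a mouse was not possible for the same reason. Intervals cover counting error alone, and the spread between mice is not known.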
